A study of Homo sapiens with 12 samples.

Results

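The bone morphogenetic protein (BMP) genes described here are 10 genes chosen by symbol from the 25528 rows of the TPM table: the ligands BMP2, BMP4 and BMP7, the receptor BMPR1A, the pseudoreceptor BAMBI, the inhibitory SMADs SMAD6 and SMAD7, and the target genes ID1, ID2 and ID3. Their RNA was sequenced in 12 libraries, all from HT-29, a long-established line of colon adenocarcinoma cells whose genotype is labelled APC mutant in every group. In the first arm, cells carried a lentiviral open reading frame, either GFP (the control, 3 libraries) or CTNNB1, the gene of beta-catenin (3 libraries), and were collected 2 days after infection. In the second arm, cells carried a lentiviral hairpin, either shNT1 (the control, 3 libraries) or a hairpin against APC (shAPC, 3 libraries), and doxycycline at 2 µM was given 1 day before collection. Vector, collection time and doxycycline thus differ between the arms, and their part in a difference between arms cannot be told apart. No label says whether the replicates were separate cultures, so the p-values measure only the spread between these libraries. In bulk RNA, fewer cells of a kind and less RNA per cell cannot be told apart either.

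BMPs are secreted ligands that bind a complex of type I receptors (BMPR1A among them) and type II receptors, which phosphorylate SMAD1, SMAD5 and SMAD9. These SMADs join SMAD4 and switch on target genes, including the ID genes, whose products bind E proteins and keep them off DNA, and SMAD6, SMAD7 and BAMBI, which dampen the signal. In the colon, BMP signalling is strong towards the crypt mouth, where cells differentiate, and WNT signalling is strong at the crypt base, where stem cells lie. HT-29 cells are known to carry a truncating mutation of SMAD4, which limits them as a model of SMAD4-dependent transcription.

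The promoters of the genes on which the results turn are shown first. RefSeq windows (GRCh38.p14, 250 bases before to 50 bases after each start) were found for 8 of the 10 genes, all but BMP2 and BMP7. They were searched on both strands for the palindromic SMAD box GTCTAGAC, the GC-rich SMAD element GGCGCC, and the TCF/LEF sites CTTTGAT and CTTTGTT. Capitals mark a match. The SMAD6 window, the first BMP4 window and the windows of ID1 and ID2 are given because SMAD6 holds the rarest of these motifs, BMP4 passed the test in both arms, and the 2 ID genes are the most abundant targets.
BMP4, chr14:53955001-53955300, minus strand: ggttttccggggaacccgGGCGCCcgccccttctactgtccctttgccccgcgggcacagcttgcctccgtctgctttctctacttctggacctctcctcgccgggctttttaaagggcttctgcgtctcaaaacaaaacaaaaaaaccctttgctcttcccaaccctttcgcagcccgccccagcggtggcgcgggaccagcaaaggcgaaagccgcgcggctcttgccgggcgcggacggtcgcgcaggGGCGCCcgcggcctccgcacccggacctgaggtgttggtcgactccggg
SMAD6, chr15:66701986-66702285, plus strand: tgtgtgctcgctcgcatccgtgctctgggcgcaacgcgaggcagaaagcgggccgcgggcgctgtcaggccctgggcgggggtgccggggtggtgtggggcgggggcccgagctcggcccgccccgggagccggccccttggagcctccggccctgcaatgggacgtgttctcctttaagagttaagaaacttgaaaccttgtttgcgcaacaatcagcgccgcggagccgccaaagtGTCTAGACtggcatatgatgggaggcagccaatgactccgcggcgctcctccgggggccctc
ID1, chr20:31605039-31605338, plus strand: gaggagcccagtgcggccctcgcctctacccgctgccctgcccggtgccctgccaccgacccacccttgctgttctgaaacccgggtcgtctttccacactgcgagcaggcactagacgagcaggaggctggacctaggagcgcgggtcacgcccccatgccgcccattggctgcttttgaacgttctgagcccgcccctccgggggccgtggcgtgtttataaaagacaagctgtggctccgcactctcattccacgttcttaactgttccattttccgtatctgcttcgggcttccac
ID2, chr2:8681806-8682105, plus strand: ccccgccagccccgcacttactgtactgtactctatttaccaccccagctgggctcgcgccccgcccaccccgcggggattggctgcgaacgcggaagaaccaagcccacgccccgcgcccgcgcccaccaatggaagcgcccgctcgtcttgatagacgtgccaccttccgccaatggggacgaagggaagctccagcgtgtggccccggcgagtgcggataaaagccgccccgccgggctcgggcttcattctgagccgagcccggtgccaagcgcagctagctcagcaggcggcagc
The SMAD6 window held 1 GTCTAGAC, which starts 12 bases before the start site and occurs in 0.202% of the 35116 RefSeq windows of this length. The BMP4 window held 2 GGCGCC, an element of 19.2% of all windows, and the BAMBI window held 3. The other 2 BMP4 starts in the table had no match. None of the windows of the 8 genes held CTTTGAT (2.6% of all windows) or CTTTGTT (5.2%). A match is a run of letters, not a measured binding site. Sites outside these windows, or spelled otherwise, were not searched for, so no match does not mean no site.

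The perturbations and the cells were checked before the BMP genes. APC averaged 5.99 ± 0.56 TPM in shAPC and 16.4 ± 0.8 TPM in shNT1 (SD, n = 3 each). The CTNNB1 transcript averaged 160 ± 4.2 TPM with the CTNNB1 reading frame, against 146 ± 2.9 TPM in GFP. This difference missed the threshold (0.13 on the log2 scale, limma adjusted p = 0.059) and passed it under quantile normalization (0.12, 0.048) and without CTNNB1 replicate 1 (0.11, 0.05). AXIN2, a feedback target of WNT signalling, rose in both arms (1.04 and 1.59 on the log2 scale, limma adjusted p = 3e-06 and 3.5e-07). Of 8 genes read as checks (APC, CTNNB1 and 6 WNT feedback genes), 5 were called higher with CTNNB1, and with shAPC 6 were called higher and 1, APC itself, lower. Among all genes tested, 16.3% were called higher and 7.16% lower with CTNNB1, and 7.24% higher and 14.9% lower with shAPC. LGR5, SP5, NKD1 and ZNRF3 rose in both arms (1.38, 2.14, 2.35 and 0.69 with CTNNB1, and 1.21, 2.24, 2.73 and 0.7 with shAPC). NKD1 averaged only 0.044 TPM in GFP and 0.12 TPM in shNT1. It reached the mean of 1 TPM needed for testing only through the perturbed libraries, so its calls, counted above, are not read as support. Each library held between 14756 and 16186 genes above 0 TPM, with the lowest in shNT1 replicate 3. EPCAM, an epithelial surface protein, lay between 1400 and 1809 TPM, whereas the intestinal factors CDX1 and CDX2 stayed below 1 TPM in every library. Of 15 markers of fibroblasts, muscle, endothelium and immune cells, 13 stayed below 1 TPM in every library. CD3E was listed at 0 throughout, and PTPRC reached at most 0.0217 TPM. The exceptions were LUM, at up to 1.2 TPM, and the lysosomal protein CD68, at 6.06 to 27.4 TPM. The summed level of the 15 markers, most of it CD68, which fell in both arms (-0.98 and -0.81, limma adjusted p = 2.4e-05 and 0.00067), was 28.2 to 28.8 TPM in GFP, 13.3 to 15.4 in CTNNB1, 15 to 16.8 in shNT1 and 7.49 to 9.53 in shAPC. Of 10 markers of colon epithelium, 8 were tested. With CTNNB1 3 were called higher and 2 lower, and with shAPC 4 were called lower. These counts stand against the shares over all genes given above. VIL1 (0.47, limma adjusted p = 0.00012), KRT18 (0.28, 0.00055) and KRT8 (0.17, 0.0078) were the 3 called higher with CTNNB1, and were not called with shAPC. KRT8 lost its call under median-ratio scaling (0.11, adjusted p = 0.13). CDH1 was called lower with shAPC (-0.33, limma adjusted p = 0.0047). These genes were named after their values were seen. LGALS4, a lectin of differentiated enterocytes, fell by 0.52 and 0.61 on the log2 scale, and KRT19, a keratin, fell by 0.21 and 0.42. KRT20, a keratin of differentiated colon cells, fell by 0.61 with shAPC (limma adjusted p = 0.00017) and was -0.01 with CTNNB1 (limma adjusted p = 0.9). The part of either marker list in the results below was not tested.

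BMP4 was by far the most abundant of the 3 ligands, and it rose in both arms. ID2 rose with CTNNB1 and fell with shAPC, ID1 fell with shAPC, and BMPR1A and SMAD7 rose with CTNNB1. The rises of BMPR1A and SMAD7 were less stable. Of 15 alternative fits, 9 lost the result for BMPR1A and 6 that for SMAD7, and the authors' deposited table calls neither. That table does not call the rise of BMP4 with CTNNB1 either (0.14, adjusted p 0.098). In the 15 alternative fits the BMP4 rise kept its call, with a limma adjusted p of up to 0.049. A gene was tested when its mean over the 6 libraries of an arm was at least 1 TPM. This left 8 of the 10 genes in each arm, while BMP7 and ID3 lay below it. The test was limma on log2(TPM + 1), and a gene was called at a Benjamini-Hochberg adjusted p under 0.05 over all genes. In the CTNNB1 arm 4 of the 8 were called, all higher, where 23.5% of the 11624 genes tested were called. Among all genes 16.3% were called higher and 7.16% lower. In the shAPC arm 3 of the 8 were called, 1 higher and 2 lower, where 22.1% of 11834 genes were called (7.24% higher and 14.9% lower). The genes with no overlap between the libraries of an arm were the same 4 and 3. Among all genes, 43.2% had no overlap in the CTNNB1 arm (30.2% above the control) and 40.9% in the shAPC arm (14.5% above and 26.4% below). The median log2 fold change of the 8 genes was 0.12 in the CTNNB1 arm and -0.11 in the shAPC arm, against 0.06 and -0.04 for all genes. Scaling libraries to a common median ratio took the higher calls of the CTNNB1 arm from 69.5% to 49.4% of all calls and those of the shAPC arm from 32.8% to 47.6%. It left 3 of the 8 called in each arm, since BMPR1A lost its call in the CTNNB1 arm.

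**Figure D1:**
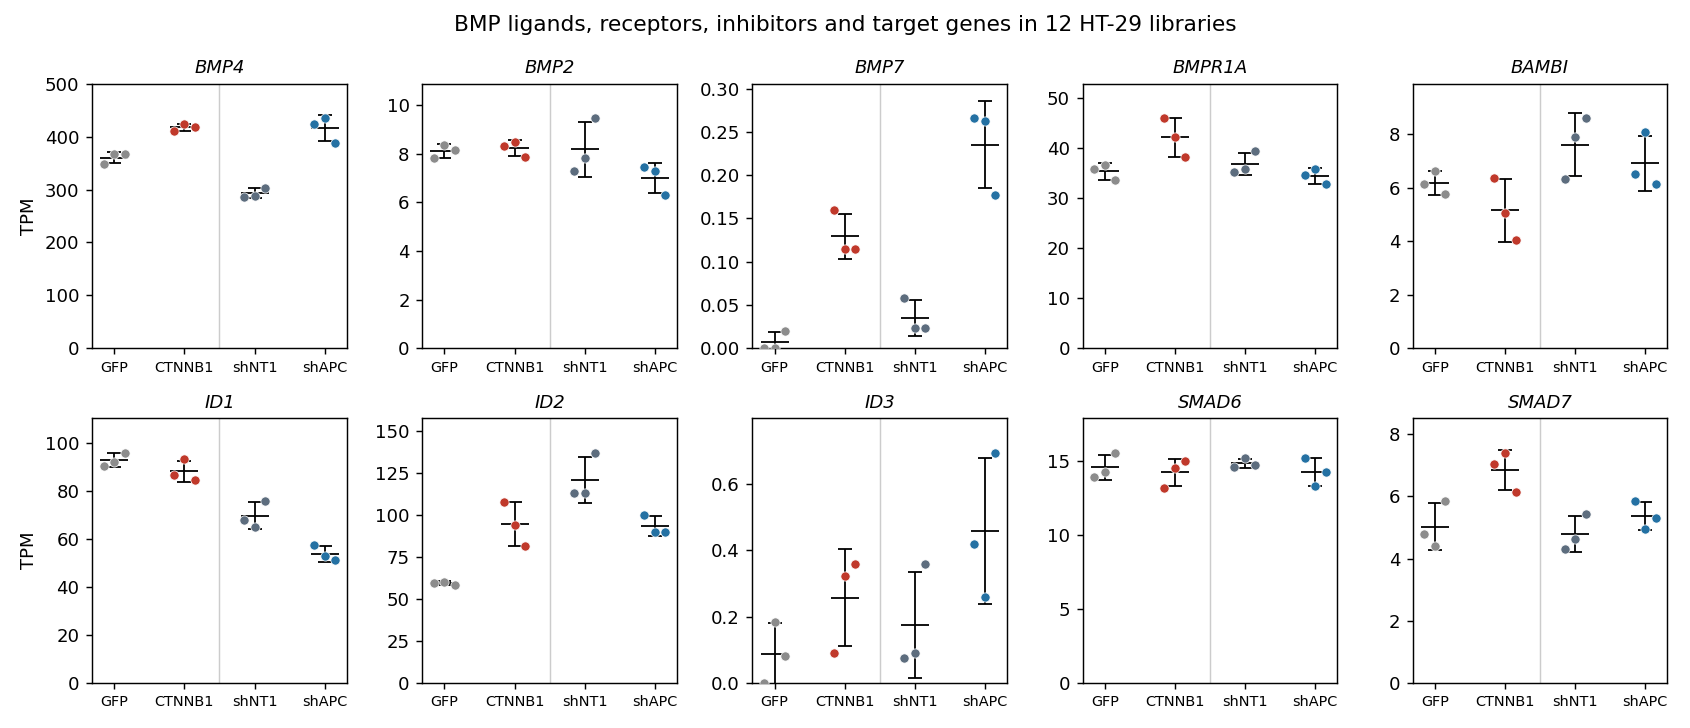
TPM (vertical axes, linear, each from 0) of the 10 genes in the 4 groups; dots are single libraries, black bars the mean and SD of 3 libraries, and a grey line parts the arms. BMP4 was higher in each perturbed group than in its control, and ID2 was lowest in GFP (58.2 to 60.4 TPM) and highest in shNT1 (113 to 137 TPM).

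The ligands are described first. BMP4 (ENSG00000125378, chr14:53949736-53958761, minus strand, GENCODE v29) encodes a secreted BMP that is also known as a target of WNT signalling in colon cancer cells. It was measured at 348, 368 and 366 TPM in GFP and at 411, 424 and 418 TPM in CTNNB1. In the hairpin arm it was measured at 286, 288 and 304 TPM in shNT1 and at 425, 435 and 388 TPM in shAPC. Every perturbed library lay above every control library of its arm, and the groups of perturbed libraries overlapped each other. The shNT1 libraries lay below the GFP libraries, with a ratio of means of 0.812, whereas the ratio of shAPC to CTNNB1 was 0.996. BMP4 rose by 0.21 in the CTNNB1 arm (SE 0.04, limma adjusted p = 0.0061) and by 0.5 in the shAPC arm (SE 0.06, limma adjusted p = 0.00022), both on the log2 scale. With CTNNB1 the rise was the smaller of the pair, by the test of the difference itself (-0.29, 95% interval -0.44 to -0.15, limma adjusted p = 0.012). For BMP4 the authors' deposited table gives a log2 fold change of 0.14 with CTNNB1, which is not called (adjusted p 0.098). With shAPC it gives 0.55 (adjusted p 0.0017).

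BMP2 (ENSG00000125845, chr20:6767664-6780280), which signals through the same receptors, ranged from 6.3 to 9.47 TPM. Its log2 difference was 0.02 in the CTNNB1 arm (95% interval -0.13 to 0.17, limma adjusted p = 0.86) and turned negative under median-ratio scaling and quantile normalization. In the shAPC arm it was -0.2 (95% interval -0.42 to 0.03, limma adjusted p = 0.2). BMP4 held 97% to 98.4% of the summed TPM of the 3 ligands in the 12 libraries.

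BMP7 (ENSG00000101144, chr20:57168748-57266629) was near 0 in every library. It was listed at 0, 0 and 0.0204 TPM in GFP and at 0.159, 0.115 and 0.114 TPM in CTNNB1. The shNT1 libraries held 0.0583, 0.023 and 0.0227 TPM, and the shAPC libraries 0.266, 0.262 and 0.177 TPM. In each arm all perturbed libraries lay above all control libraries, at levels below 0.3 TPM. Without the filter on low levels, its log2(TPM + 1) was higher by 0.17 in the CTNNB1 arm (limma adjusted p = 0.013 over 17849 genes) and by 0.26 in the shAPC arm (limma adjusted p = 0.014 over 17968 genes). The authors' deposited table lists 3.05 with CTNNB1 (adjusted p 0.0081) and 2.52 with shAPC (adjusted p 0.011) as its log2 fold changes. BMP7-AS1, which overlaps BMP7 on the other strand, was listed at 0 in all 12 libraries.

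BMPR1A (ENSG00000107779, chr10:86756601-86932838) encodes a type I receptor of BMP2 and BMP4. It was measured at 35.7, 36.6 and 33.5 TPM in GFP and at 45.9, 42.2 and 38.1 TPM in CTNNB1, so that the groups did not overlap. It rose by 0.24 on the log2 scale (SE 0.07, limma adjusted p = 0.036). This call was lost without GFP replicate 1 (0.25, adjusted p = 0.09), GFP replicate 2 (0.27, 0.071), GFP replicate 3 (0.21, 0.13) or CTNNB1 replicate 2 (0.24, 0.095). The authors' deposited table does not call BMPR1A with CTNNB1 (0.18, adjusted p 0.17) or with shAPC (-0.06, adjusted p 0.65). Under the hairpins it was measured at 35.1, 35.8 and 39.4 TPM in shNT1 and 34.6, 35.8 and 32.7 TPM in shAPC. These groups overlapped (-0.09, 95% interval -0.24 to 0.05, limma adjusted p = 0.32). GENCODE lists 2 processed pseudogenes of BMPR1A, and how shared reads were divided is not given in the sources used here.

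BAMBI (ENSG00000095739, chr10:28677342-28682939), a decoy receptor without a kinase domain, ranged from 4.05 to 8.61 TPM. Its log2 difference was -0.24 in the CTNNB1 arm (95% interval -0.52 to 0.05, limma adjusted p = 0.2) and -0.12 in the shAPC arm (95% interval -0.39 to 0.15, limma adjusted p = 0.51). Without CTNNB1 replicate 1, the highest of its group, the first value was -0.38 with an adjusted p of 0.021.

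The ID genes moved in different ways. ID2 (ENSG00000115738, chr2:8678845-8684453) encodes a helix-loop-helix protein that binds E proteins without binding DNA. It was measured at 59.6, 60.4 and 58.2 TPM in GFP and at 108, 94.3 and 81.8 TPM in CTNNB1, with a gap between the groups. It rose by 0.66 on the log2 scale (SE 0.09, limma adjusted p = 0.00062), a 1.58-fold change. Under the hairpins it was measured at 113, 114 and 137 TPM in shNT1 and at 100.3, 90.2 and 90.2 TPM in shAPC. Here every perturbed library lay below every control library, and ID2 fell by 0.37 on the log2 scale (SE 0.08, limma adjusted p = 0.0097). The effects of the arms differed by 1.02 (95% interval 0.75 to 1.3, limma adjusted p = 0.00024). The controls stood farther apart than the perturbed groups. The ratio of the shNT1 to the GFP mean was 2.04, and that of the shAPC to the CTNNB1 mean was 0.988. ID2-AS1 overlaps ID2 on the other strand and lay between 0.133 and 1.19 TPM, and the labels do not say whether reads were counted by strand. ID2 has log2 fold changes of 0.59 with CTNNB1 (adjusted p 0.011) and -0.33 with shAPC (adjusted p 0.039) in the authors' deposited table.

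ID1 (ENSG00000125968, chr20:31605283-31606515), the most widely used readout of BMP signalling, was measured at 90.3, 92.4 and 96 TPM in GFP and at 86.8, 93.2 and 84.7 TPM in CTNNB1. These groups overlapped, with a log2 difference of -0.07 (95% interval -0.19 to 0.04, limma adjusted p = 0.34). Under the hairpins ID1 was measured at 67.9, 65.2 and 76.1 TPM in shNT1 and at 57.4, 52.7 and 51.2 TPM in shAPC. It fell by 0.37 on the log2 scale (SE 0.07, limma adjusted p = 0.0049), with no overlap between the groups. ID1 is listed in the authors' deposited table at -0.33 with shAPC (adjusted p 0.014) and at -0.15 with CTNNB1 (adjusted p 0.16). It was lower in both hairpin groups than in both open reading frame groups. Its TPM was 1.52 to 1.65 times that of ID2 in GFP, 0.803 to 1.03 times in CTNNB1, 0.554 to 0.601 times in shNT1 and 0.568 to 0.585 times in shAPC. ID3 (ENSG00000117318, chr1:23557918-23559794) stayed between 0 and 0.694 TPM, and ID4 was listed at 0 in all libraries. Without the filter, ID3 did not pass in the CTNNB1 arm (0.21, limma adjusted p = 0.24) or the shAPC arm (0.31, limma adjusted p = 0.21).

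SMAD7 (ENSG00000101665, chr18:48919853-48952052) encodes an inhibitory SMAD that blocks receptors of both BMP and TGF-beta. It was measured at 4.79, 4.41 and 5.86 TPM in GFP and at 7.03, 7.4 and 6.15 TPM in CTNNB1, with no overlap. SMAD7 rose by 0.39 on the log2 scale (SE 0.11, limma adjusted p = 0.026). The call was lost without GFP replicate 1 (0.36, adjusted p = 0.088), GFP replicate 2 (0.32, 0.1) or CTNNB1 replicate 2 (0.34, 0.095), and under quantile normalization (0.28, 0.064). SMAD7 is not called with CTNNB1 in the authors' deposited table either (0.39, adjusted p 0.11). Its levels under the hairpins were 4.31, 4.64 and 5.45 TPM in shNT1 and 5.84, 4.95 and 5.32 TPM in shAPC. Those groups overlapped (0.14, 95% interval -0.09 to 0.36, limma adjusted p = 0.35). SMAD6 (ENSG00000137834, chr15:66702228-66782848), the inhibitory SMAD of the BMP branch, had the group means closest together of the 8 genes. It stayed between 13.2 and 15.6 TPM, and its highest group mean was 1.04 times its lowest. Its log2 differences were -0.03 (95% interval -0.19 to 0.13) and -0.06 (95% interval -0.21 to 0.09).

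**Figure D2:**
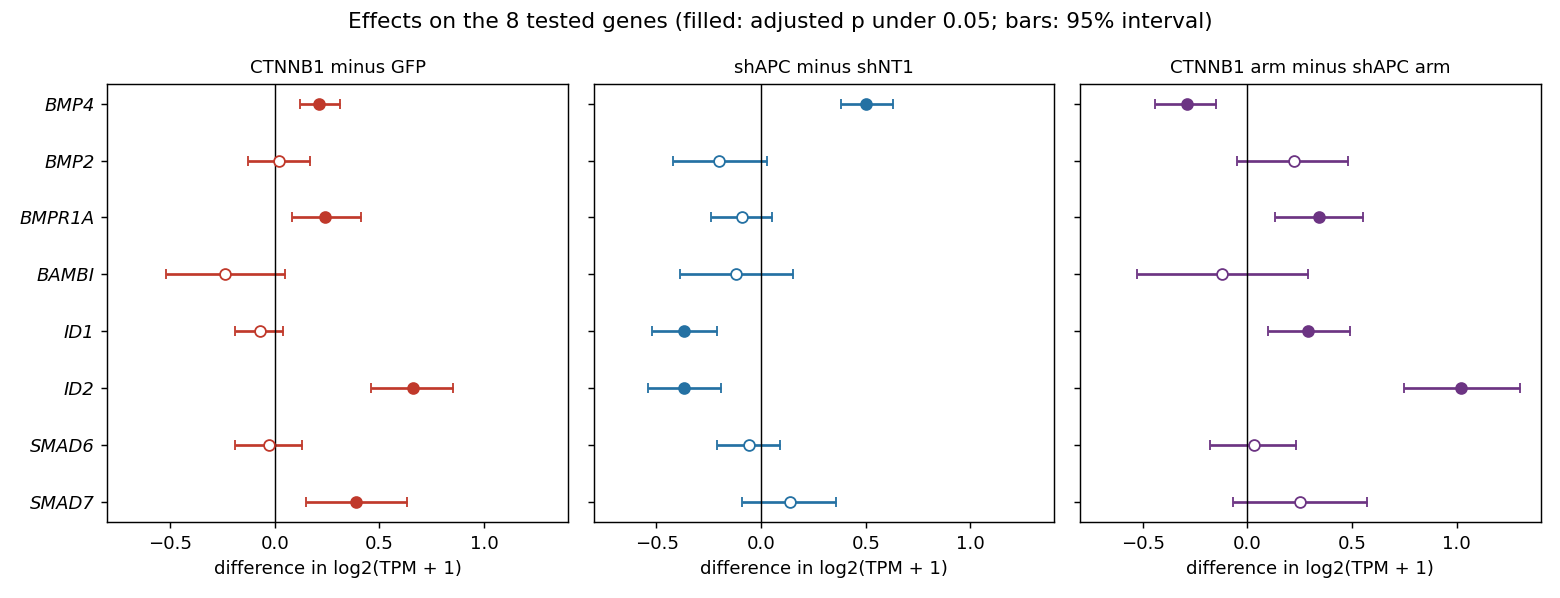
Differences in log2(TPM + 1) (horizontal axes) for the 8 tested genes in the CTNNB1 arm, the shAPC arm and the first minus the second; dots are limma estimates, bars 95% intervals, and filled dots have an adjusted p under 0.05. BMP4 lies above 0 in both arms, ID2 lies at 0.66 in one and -0.37 in the other, and the SMAD6 intervals span 0 in all 3 panels.

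A joint model of the 12 libraries tested whether an effect differed between the arms. A difference was called for 4 of the 8 genes, 3 with a positive difference and 1 with a negative one, where 16.1% of 11741 genes were called (13.3% positive and 2.76% negative). Besides BMP4 and ID2, these were BMPR1A (0.34, limma adjusted p = 0.034) and ID1 (0.29, limma adjusted p = 0.04). The median difference over all genes was 0.11 and came to 0.004 after median-ratio scaling. There BMPR1A (0.23, adjusted p = 0.095) and ID1 (0.18, adjusted p = 0.12) were no longer called. The call of BMPR1A was also lost without any one GFP library (adjusted p from 0.054 to 0.078), CTNNB1 replicate 1 (0.061), CTNNB1 replicate 2 (0.062), shNT1 replicate 3 (0.075) or shAPC replicate 3 (0.088). The call of ID1 held only without CTNNB1 replicate 3 (adjusted p = 0.035), shNT1 replicate 2 (0.03) or shAPC replicate 1 (0.023). Leaving out any other library gave adjusted p-values from 0.05 to 0.1. For SMAD7, BMP2, BAMBI and SMAD6 the differences were 0.25, 0.22, -0.12 and 0.03, and none passed the threshold (limma adjusted p from 0.25 to 0.88).

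The rest of the pathway was read from lists of ligands, receptors, antagonists, SMAD regulators and targets. Each count of calls in the lists below stands against the share over all genes tested. With CTNNB1 16.3% of all genes were called higher and 7.16% lower, and with shAPC 7.24% higher and 14.9% lower. In the CTNNB1 arm 69.5% of all calls were higher. Of 19 BMP and GDF ligands, 5 were tested in each arm. CTNNB1 gave 4 calls, all higher (BMP4, BMP8B, GDF11 and GDF15), and shAPC gave 3, all higher (BMP4, GDF11 and GDF15). BMP8B, like the other genes named below from a count with no per-library values, was named after its values were seen. BMP8B (0.36, limma adjusted p = 0.038) lost its call under median-ratio scaling (0.32, 0.06) and quantile normalization (0.24, 0.13), which left 3 calls with CTNNB1, and 2 ligands were called over genes of at least 5 TPM. GDF11, a ligand of the activin receptors, rose from 2.77 ± 0.38 to 5.63 ± 0.3 TPM with CTNNB1 and from 3.89 ± 0.22 to 6.54 ± 0.07 TPM with shAPC (SD, n = 3 each). Its log2 changes were 0.82 and 0.63 (limma adjusted p = 0.00033 and 0.00064). GDF15, a stress-induced secreted factor, rose by 0.64 and 0.61 on the log2 scale (limma adjusted p = 0.00024 and 0.0031).

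Of 11 BMP receptors and co-receptors, 10 matched a row and 7 were tested. With CTNNB1 3 were called, all higher (BMPR1A, BMPR2 and ACVR2B). With shAPC 0 of the 7 were called by limma and 1 had an unadjusted p under 0.05. The count was 1 in a fit of all 4 groups, over genes of at least 5 TPM, or without shNT1 replicate 1. BMPR2, the main type II receptor, was measured at 15.6, 15.9 and 15.7 TPM in GFP and at 27.3, 22.4 and 20.9 TPM in CTNNB1. It rose by 0.54 on the log2 scale (SE 0.09, limma adjusted p = 0.0023). ACVR2B, another type II receptor, rose from 2.92 ± 0.18 to 4.73 ± 0.64 TPM (0.54, limma adjusted p = 0.0045). In the hairpin arm the log2 differences of BMPR2 and ACVR2B were 0.09 and -0.08 (limma adjusted p = 0.34 and 0.54). The GFP libraries were the lowest of all 12 for both genes. Among the other type I receptors of BMPs, BMPR1B stayed at or below 0.13 TPM, and ACVR1 lay between 29.8 and 38.9 TPM and was called in neither arm (0.02 and -0.11, limma adjusted p = 0.85 and 0.21). ACVR1 had the opposite sign with CTNNB1 under median-ratio scaling (-0.04) and quantile normalization (-0.03).

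Of 21 extracellular antagonists and modulators, 5 were tested. With CTNNB1 2 were called, both higher (TWSG1 and SOSTDC1). With shAPC SOSTDC1 was called higher and CRIM1 lower (-0.23, limma adjusted p = 0.043), and the list kept 1 call whichever library of that arm was left out. The antagonists NOG, FST, SOST and CER1 were listed at 0 in all libraries, and GREM1 reached at most 0.0104 TPM. SOSTDC1, a secreted antagonist of BMPs and of WNT co-receptors, had the largest change of the list. It was measured at 3.59, 3.71 and 3.13 TPM in GFP and at 11.1, 12.5 and 12.2 TPM in CTNNB1. The shNT1 libraries held 5.84, 4.36 and 5.61 TPM, and the shAPC libraries 13.9, 13.6 and 12.5 TPM. SOSTDC1 rose by 1.53 (SE 0.08, limma adjusted p = 4.6e-06) and 1.2 (SE 0.1, limma adjusted p = 4.2e-05) on the log2 scale, with no overlap in either arm.

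Of 20 intracellular SMADs and regulators, 18 were tested. With CTNNB1 6 were called, all higher (SMAD1, SMAD5, SMAD7, SMURF2, CTDSP2 and CTDSPL). That count was 3 without GFP replicate 1 or CTNNB1 replicate 2 and 2 without GFP replicate 2. Among all genes tested in this arm 23.5% were called, and 69.5% of those calls were higher. With shAPC 1 gene of the list was called, lower, where 22.1% of all genes were called. This was CTDSPL, a SMAD phosphatase (-0.17, limma adjusted p = 0.043). Of the 6 fits that leave out a library of this arm, only that without shAPC replicate 1 kept the call. The others gave CTDSPL adjusted p-values from 0.056 to 0.14. The direction of the list's calls with shAPC turned under median-ratio scaling and quantile normalization, each with 2 calls, both higher and neither of them CTDSPL (-0.12, adjusted p = 0.068, and -0.1, 0.13). Those 2 were SMAD1 (0.23, limma adjusted p = 0.047, and 0.23, 0.046) and the phosphatase CTDSP2 (0.16, 0.036, and 0.18, 0.026). With CTNNB1, CTDSPL was called higher (0.19, limma adjusted p = 0.019), and not under median-ratio scaling (0.13, adjusted p = 0.076) or without GFP replicate 1 (0.18, adjusted p = 0.086), GFP replicate 2 (0.18, 0.094) or CTNNB1 replicate 2 (0.18, 0.074). SMAD4 lay between 2.54 and 3.85 TPM, below SMAD1 (11.3 to 16.7 TPM) and SMAD5 (35.3 to 50.4 TPM) in every library. These 3 genes were singled out after their values had been seen.

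Of 23 BMP target genes, 10 were tested in the CTNNB1 arm and 11 in the shAPC arm. In the first 6 were called, all higher (ID2, SMAD7, GATA2, HES1, RUNX2 and ZNF503), and in the second 2 higher (RUNX2 and ZNF503) and 2 lower (ID1 and ID2). RUNX2, a transcription factor of bone formation, rose in both arms, from 2.14 ± 0.12 to 5.52 ± 0.45 TPM (1.05 on the log2 scale, limma adjusted p = 5.8e-05) and from 4.03 ± 0.02 to 6.05 ± 0.28 TPM (0.49, limma adjusted p = 0.0025). GATA2, a transcription factor known from blood cells, rose with CTNNB1 from 9.3 ± 0.66 to 14.7 ± 0.79 TPM (0.61, limma adjusted p = 0.0004). Under the hairpins GATA2 averaged 18.9 ± 1.2 and 17.3 ± 0.5 TPM (-0.12, limma adjusted p = 0.25). ZNF503, a zinc finger protein, rose by 0.41 and 0.95 on the log2 scale (limma adjusted p = 0.017 and 0.00063). Its call with CTNNB1 was lost under quantile normalization (0.28, adjusted p = 0.064) and without GFP replicate 1 (0.41, adjusted p = 0.055), GFP replicate 2 (0.38, 0.067) or CTNNB1 replicate 2 (0.39, 0.067). The targets ATOH8, HAMP and SMAD9 stayed below 0.3 TPM.

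**Figure D3:**
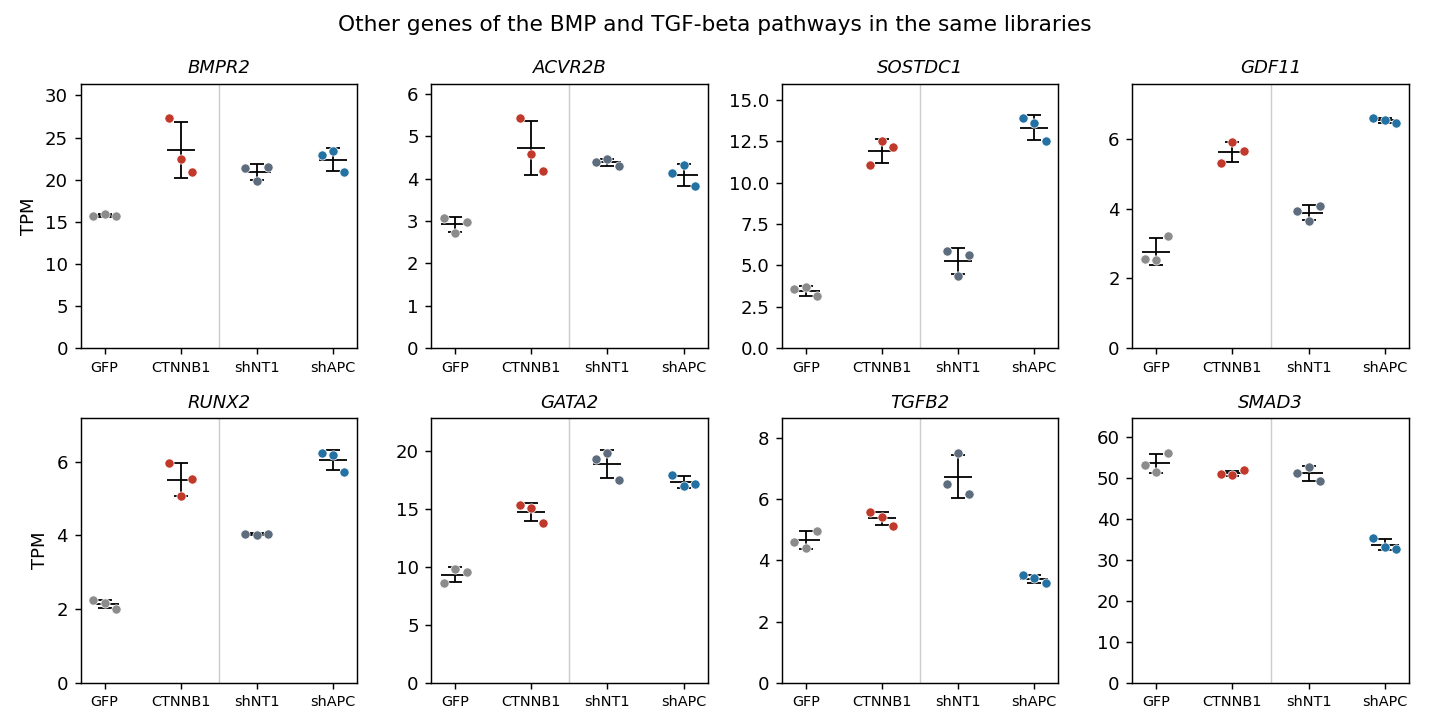
TPM (vertical axes, linear, each from 0) of 8 further genes of the BMP and TGF-beta pathways, picked for display after their values were seen; dots are single libraries, and black bars the mean and SD of 3 libraries. SOSTDC1, GDF11 and RUNX2 were higher in both perturbed groups than in their controls, GFP was lowest for BMPR2, ACVR2B and GATA2, and shAPC was lowest for TGFB2 and SMAD3.

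The TGF-beta and activin branch, which shares SMAD4 and SMAD7 with the BMP branch, was read for comparison. Of its 21 genes, 13 were tested in the CTNNB1 arm (8 called higher, 2 lower) and 14 in the shAPC arm (3 higher, 5 lower). Under median-ratio scaling the second split was 6 higher and 5 lower. The 10 calls of the CTNNB1 arm became 6 without GFP replicate 2, and the 8 of the shAPC arm became 5 without shAPC replicate 1 or shAPC replicate 2. TGFBR3, a co-receptor, rose in both arms (1.23 and 0.77 on the log2 scale, limma adjusted p = 5.1e-05 and 0.00078). With shAPC, TGFB2 fell from 6.73 ± 0.69 to 3.4 ± 0.13 TPM (-0.81, limma adjusted p = 0.00027), the receptor TGFBR2 from 101 ± 7.7 to 66 ± 4.5 TPM (-0.61, limma adjusted p = 0.00026) and SMAD3 from 51 ± 1.7 to 33.7 ± 1.4 TPM (-0.59, limma adjusted p = 9.5e-05). TGFBR2 was also called lower with CTNNB1 (-0.15, limma adjusted p = 0.045), but lost that call without any one library of the arm other than CTNNB1 replicate 1 (-0.17 to -0.12, adjusted p from 0.082 to 0.15). TGFB3 rose with shAPC from 0.317 ± 0.036 to 1.97 ± 0.12 TPM (1.17, limma adjusted p = 0.00015). That call, counted above, is not read as support, because entry to the test depended on the rise itself. TGFB3 never exceeded 0.347 TPM in a control library of this arm and met the filter of 1 TPM only through the shAPC libraries. It was not tested in the CTNNB1 arm, where it averaged 0.184 TPM in GFP and 1.36 TPM in CTNNB1. TGFBR1 was called higher with CTNNB1 (0.5, limma adjusted p = 0.0024). The latency proteins LTBP3 (0.37 and 0.3) and LTBP4 (-0.48 and -0.38) were called in both arms. With shAPC the call of LTBP3 was lost without shNT1 replicate 1 (0.25, adjusted p = 0.079), shAPC replicate 1 (0.31, 0.055) or shAPC replicate 2 (0.25, 0.087). That of LTBP4 was lost without shNT1 replicate 1 (-0.35, adjusted p = 0.074), shNT1 replicate 2 (-0.34, 0.073), shAPC replicate 2 (-0.39, 0.067) or shAPC replicate 3 (-0.32, 0.092).

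The E proteins and other partners of ID proteins gave 4 calls among 7 tested genes in the CTNNB1 arm, all higher (TCF12, ASCL2, HES1 and ETS2), and 2 higher (TCF12 and ASCL2) and 1 lower (ETS1) in the shAPC arm. The latter count was 2 without shAPC replicate 1 and 1 without any other single library of that arm. ASCL2, a basic helix-loop-helix factor of intestinal stem cells, rose with CTNNB1 from 1.95 ± 0.1 to 7.98 ± 1.3 TPM (1.6 on the log2 scale, limma adjusted p = 1.9e-05). With shAPC ASCL2 rose from 1.76 ± 0.15 to 12.4 ± 0.55 TPM (2.28, limma adjusted p = 3.5e-07). TCF12, an E protein, rose by 0.35 with CTNNB1 (limma adjusted p = 0.0025). It was called with shAPC (0.18, limma adjusted p = 0.04), but not after any single library of that arm was left out (adjusted p from 0.065 to 0.096).

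The genes whose levels followed BMP4 and ID2 most closely were ranked among 11740 genes by Pearson r of log2(TPM + 1) over the 12 libraries, which share the 4 conditions. Highest for BMP4 were IGFL4 (r = 0.977), GRHL3 (0.944) and FAM198B (0.937). Highest for ID2 were LOC101930085 (0.977), PTPN7 (0.97) and LMO4 (0.969). With the mean of each arm subtracted, they were IGFL4 (0.98), TMEM94 (0.971) and CEMIP (0.97) for BMP4, and NFE2L3 (0.98), MYB (0.977) and LANCL1 (0.976) for ID2. IGFL4 led for BMP4 in both rankings, and no gene recurred for ID2.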

How the data were processed

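Values in TPM (transcript share per library, scaled to a constant sum) were deposited by the authors with 1 column per library. They also deposited a limma table for each arm, with log2 fold changes, mean log2 expression, p-values and adjusted p-values per the file headers; its moderated t and log-odds score columns, deposited beside them, were not used. STAR 2.7.3a, limma and hg38 are named in the submitters' processing notes; the quantifier and annotation are not given in the sources used here. Sequencing depth cannot be read from TPM; it is unknown here, and no detection floor was derived.

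Each arm was fitted on log2(TPM + 1) by limma (version 3.58.1, under R 4.3.3) with a variance trend, over genes with a mean of at least 1 TPM; the added 1 understates fold changes of low genes. A contrast over all 12 libraries tested the difference between arms. The fits were tested on simulated independent counts of an assumed depth and spread, with equally many rises and falls, all in genes of at least 5 TPM. That simulation cannot speak for low genes or for a shift of most genes in 1 direction. All 10 genes were named. Other list genes were named when called in both arms, or when called in 1 and changed by 0.5 or more, up or down, on the log2 scale. The genes and lists were chosen with earlier results of these data known. Positions are from GENCODE v29 and promoters from RefSeq (GRCh38.p14). Alternatives covered pseudocount, filter, scaling, variance trend, threshold, one fit of all 4 groups, a replicate block and leaving out each library.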

Additional observations from a re-analysis of the deposited data

Results flagged for a closer look

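For each gene below, limma's test of the difference found unequal effects of CTNNB1 and shAPC, each against its own control (values are the first effect minus the second, on the log2 scale). Of the 10 BMP genes, these were ID2 (1.02, adjusted p = 0.00024), BMPR1A (0.34, adjusted p = 0.034), ID1 (0.29, adjusted p = 0.04) and BMP4 (-0.29, adjusted p = 0.012). Of 20 alternatives, 13 lost the call of BMPR1A, 15 that of ID1 and 1 that of BMP4. Median-ratio scaling was among those that lost BMPR1A and ID1.

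Among the other receptors and SMAD regulators, the difference was 0.62 for ACVR2B, 0.45 for BMPR2 and 0.36 for CTDSPL. Among targets it was 0.73 for GATA2, 0.57 for RUNX2 and -0.54 for ZNF503. In the TGF-beta branch it was 0.98 for TGFB2, 0.52 for SMAD3 and 0.46 for TGFBR2, all 3 lower in shAPC than in shNT1. ASCL2 (-0.69) and AXIN2 (-0.56) rose in both arms and by less with CTNNB1. The difference was 0.6 for the epithelial marker KRT20 (adjusted p = 0.00039), and APC (1.53) is the gene that the hairpin targets.

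Under quantile normalization the call of BMPR2 was lost (0.32, adjusted p = 0.055), as it was without shAPC replicate 3 (0.4, adjusted p = 0.057). The call of ZNF503 was lost without any one GFP library, shNT1 replicate 1, shNT1 replicate 2 or shAPC replicate 3 (-0.57 to -0.45, adjusted p from 0.051 to 0.08).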

How the results depend on the processing

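BMP4 and ID2 kept their direction and their call in both arms under all 15 alternatives run for each, and so did ID1 in the shAPC arm. The closest to the threshold of 0.05 was BMP4 with CTNNB1 under median-ratio scaling (0.15, limma adjusted p = 0.049). The authors' deposited table does not call that rise (0.14, adjusted p 0.098). For the fall of ID2 with shAPC, the limma adjusted p reached 0.048 with all libraries kept and 0.044 with 1 left out. That fall passed the threshold of 0.01 only narrowly, at 0.0097. The lowest and highest log2 values with all libraries kept were 0.15 and 0.26 for BMP4 with CTNNB1, 0.5 and 0.57 with shAPC, 0.59 and 0.66 for ID2 with CTNNB1 and -0.37 and -0.29 with shAPC. At an adjusted p under 0.01 the called genes numbered 1253 (CTNNB1 arm), 1151 (shAPC arm) and 628 (difference between arms), and the called BMP genes 2 in the CTNNB1 arm and 1 for the difference. Quantile normalization left 2 BMP genes called in the CTNNB1 arm. For the difference, 2 BMP genes were called without the filter, under median-ratio scaling, quantile normalization or no variance trend, and with the replicate block.

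Leaving out 1 library in turn gave 1499 to 3190 called genes in the CTNNB1 arm (lowest without GFP replicate 2), 1484 to 2252 in the shAPC arm (lowest without shAPC replicate 3) and 995 to 2143 for the difference (lowest without GFP replicate 2). The called BMP genes numbered 2 to 5, 3 to 3 and 2 to 4.

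The check of shared deviations did not settle whether the replicate numbers in the titles pair the libraries. Same-numbered libraries correlated at 0.216, 0.07 and 0.115 in the CTNNB1 arm, where differently numbered ones lay between -0.183 and 0.069. In the shAPC arm same-numbered libraries correlated at -0.146, -0.006 and -0.206, and differently numbered ones lay between -0.12 and 0.199. With the number as a replicate block, 2895, 1767 and 1145 genes were called in the CTNNB1 arm, the shAPC arm and the difference. BMP4 was 0.21 and ID2 0.66 in the CTNNB1 arm with the block. The difference was then not called for ID1 (adjusted p = 0.079) or BMPR1A (adjusted p = 0.052), and no other call of the 10 genes changed.

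Among the 10 genes and the other genes named by the rule, the values that changed sign under some alternative had all missed the threshold. Under median-ratio scaling and quantile normalization these were BMP2 with CTNNB1 (-0.037 and -0.083), CTNNB1 with shAPC (0.047 and 0.078) and the differences of SMAD6 (-0.079 and -0.085), GDF15 (-0.08 and -0.084) and LTBP3 (-0.032 and -0.07), with LGALS4 (-0.023) under the first and LGR5 (-0.012) under the second. A pseudocount of 0.1 turned the differences of NKD1 (0.056) and SP5 (0.071). Over all list genes tested, 39 of 480 values under these scalings had the other sign, and 0 of the 39 were called by limma before or after. With 1 library left out, the values ranged from -0.004 to 0.049 for BMP2 and -0.069 to 0.018 for SMAD6 with CTNNB1, from -0.042 to 0.013 for KRT20 with CTNNB1, and from -0.029 to 0.043 for CTNNB1 with shAPC. The differences ranged from -0.019 to 0.076 for SMAD6, -0.051 to 0.178 for GDF15, -0.213 to 0.043 for SP5, -0.065 to 0.06 for ZNRF3 and -0.258 to 0.015 for BAMBI. The cause of these changes was not tested.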
